A study of Mus musculus with 28 samples.

Results

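The comparison described here sets the 9 libraries with the highest mitochondrial share against the 9 with the lowest, out of 28 RNA-seq libraries from the ventromedial prefrontal cortex of female mice. Mitochondrial share is the percentage of a library's gene counts that fall on genes of the mitochondrial genome. All 28 libraries were ranked by it, so both sets were chosen by this measured value, and the 10 between the 2 sets are called the middle libraries. Differences between the 2 sets are therefore given as descriptions with no test. Each library came from 1 mouse, and the study had 4 groups of 7 libraries: Slit1 KD stressed, Slit1 KD unstressed, LacZ stressed and LacZ unstressed. All mice received a virus in the sampled tissue, either the one labelled as a Slit1 knockdown (KD) or the LacZ control virus. Slit1 encodes a secreted axon guidance protein. The stressed mice were taken following 3 days of a procedure abbreviated sCVS, and the unstressed mice had none. The labels give no strain, age, virus serotype or promoter. Tissue was punched with a blunt needle, so a punch can hold all cell types of the region and both infected and uninfected cells.

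The mitochondrial genome is a small circular DNA that is transcribed as long precursors and cut into ribosomal RNAs, transfer RNAs and messenger RNAs for core subunits of the respiratory chain. All other mitochondrial proteins are encoded in the nucleus, translated on cytosolic ribosomes and imported. In RNA-seq, the fraction of reads from mitochondrial genes is a common library descriptor that varies with tissue, with cell content and with RNA handling. GC content, the percentage of G and C among the bases of a transcript, influences how efficiently RNA is copied, amplified and sequenced, and gene length influences how much unspliced RNA a count over the whole gene can hold.

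The sequences below show what low and high GC content look like in genes from both ends of the comparison. Each is the middle 120 bases of a coding sequence, given 5′ to 3′, with G and C in capitals. They come from GENCODE vM21 transcripts of the GRCm38 build. Zfp758 (chr17:22361453-22377281, plus strand) has the lowest coding GC content of the 9 protein-coding genes among the 12 highest in the high-share libraries. Kctd12 (chr14:102976581-102982637, minus strand) has the highest coding GC content of the same genes. Ncdn (chr4:126743750-126753438, minus strand) has the highest coding GC content of the 12 genes lowest there. mt-Co1 (mitochondrial genome, bases 5328 to 6872, plus strand) is a mitochondrial gene that entered the ranking itself.
Zfp758: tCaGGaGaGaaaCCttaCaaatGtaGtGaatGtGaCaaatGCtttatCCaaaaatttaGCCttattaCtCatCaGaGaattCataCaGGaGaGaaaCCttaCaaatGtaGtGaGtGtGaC
Kctd12: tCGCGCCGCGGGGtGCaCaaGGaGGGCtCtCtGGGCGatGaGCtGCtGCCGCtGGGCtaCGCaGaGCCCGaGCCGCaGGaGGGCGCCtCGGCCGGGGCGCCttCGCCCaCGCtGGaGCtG
Ncdn: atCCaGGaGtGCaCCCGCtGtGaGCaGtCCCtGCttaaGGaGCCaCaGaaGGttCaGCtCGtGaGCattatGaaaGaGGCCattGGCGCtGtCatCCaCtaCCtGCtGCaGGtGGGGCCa
mt-Co1: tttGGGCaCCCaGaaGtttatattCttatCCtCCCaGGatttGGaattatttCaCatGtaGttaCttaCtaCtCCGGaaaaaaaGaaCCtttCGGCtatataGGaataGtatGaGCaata
G and C made up 42 of the 120 bases in Zfp758, 91 in Kctd12, 69 in Ncdn and 43 in mt-Co1. Zfp758 and Kctd12, 2 genes higher in the high-share libraries, therefore lie at opposite ends of coding GC content, a point taken up with the untranslated regions.

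Mitochondrial share ran from 7.05% to 14.2% (median 8.595%) in the high-share libraries and from 2.30% to 4.66% (median 3.32%) in the low-share libraries. The library just inside the high-share set had 7.05%, and the one just outside had 6.95%. At the low edge, the library just inside had 4.66% and the one just outside 5.05%. The upper boundary therefore fell between libraries that differed little, and the lower one at a wider gap. The high-share set held 2 Slit1 KD stressed, 2 Slit1 KD unstressed, 3 LacZ stressed and 2 LacZ unstressed libraries, and the low-share set held 2, 2, 2 and 3 in the same order. Both sets therefore drew on all 4 groups in nearly equal numbers. The sample numbers in the labels' titles had a median of 28 in the high-share set and 8 in the low-share set, with ranges of 3 to 40 and 1 to 38. The labels do not say what these numbers stand for. The sets followed the order of the sample records more closely. The first 7 of the 28 samples in that order held 0 high-share and 7 low-share libraries, and the last 7 held 5 high-share and 0 low-share libraries. Positions ran from 9 to 27 (median 23) in the high-share set and from 1 to 13 (median 5) in the low-share set. What the order stands for is not stated, and the part of sample order or number in the differences was not tested.

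**Figure D1:**
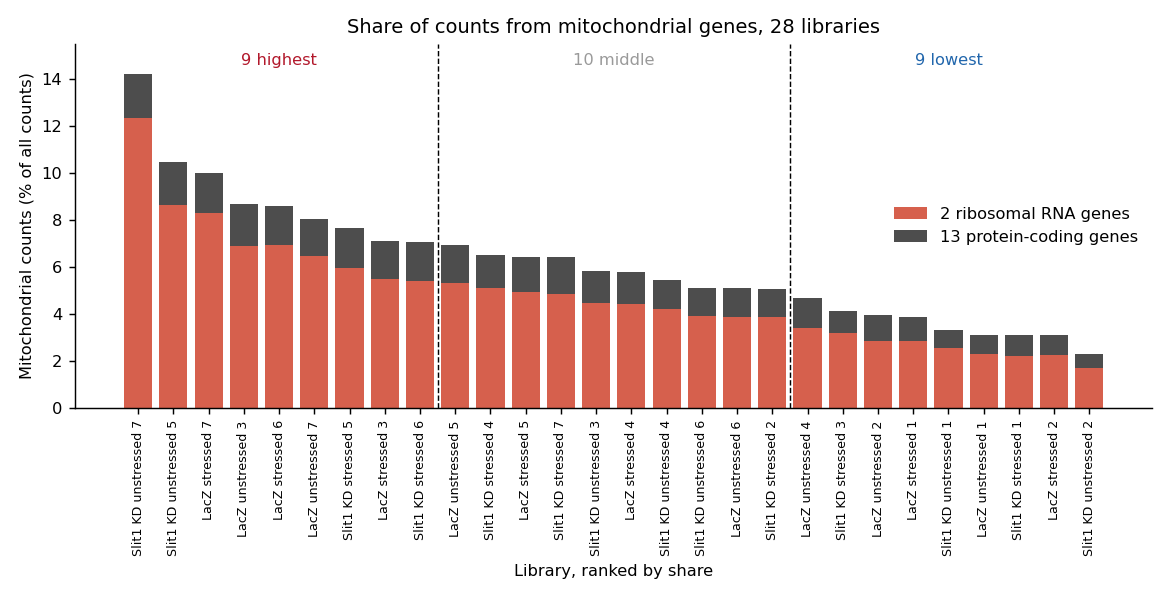
Mitochondrial share of each library (percent of all gene counts, vertical axis) in rank order. Bar colours mark the 2 ribosomal RNA genes and the 13 protein-coding genes, and dashed lines divide the sets. The 9 high-share libraries lie between 7.05% and 14.2% and the 9 low-share libraries between 2.30% and 4.66%.

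The sets also differed in depth and in the number of genes seen. Total counts, in units of 1e6, ran from 30.6 to 41.4 in the high-share libraries and from 38.5 to 44.3 in the low-share libraries. Genes with at least 1 count numbered 20882 to 24964 in the high-share libraries and 24908 to 26156 in the low-share libraries. The TMM factor, which rescales a library so that most genes have the same level, was 0.681 to 1.01 in the high-share libraries and 1.06 to 1.21 in the low-share libraries, with no overlap. Levels below are CPM, each gene's counts per 1e6 nuclear counts after TMM scaling, with mitochondrial genes left out of the library size. The first principal component of the nuclear genes held 58.8% of the variance over the 28 libraries, and all 9 high-share libraries scored above all 9 low-share libraries on it. Of 3 libraries that stood apart from the rest of the series (Slit1 KD stressed replicate 2 in bone transcripts, Slit1 KD stressed replicate 7 in striatal transcripts and LacZ stressed replicate 4 in having few T cell transcripts), 0 were among the 18.

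The mitochondrial genes were the basis of the ranking, so their values are descriptive. mt-Rnr2, the large ribosomal RNA of the mitochondrial ribosome, had 52607 to 194953 CPM (median 84156) in the high-share libraries and 13660.0 to 28405 CPM (median 19384) in the low-share libraries, a log2 difference (high minus low) of 2.04. mt-Rnr1, the small ribosomal RNA, had 4857 to 16241 CPM (median 8613) in the high-share libraries and 2300.2 to 3678 CPM (median 3011) in the low-share libraries, a log2 difference of 1.62. The mitochondrial RNAs therefore did not differ by 1 common factor. Ribosomal RNAs made up 76.6% to 86.6% of mitochondrial counts in the high-share libraries and 71.4% to 77.4% in the low-share libraries. The RNA had been ribosome-depleted, and the part of that step in mitochondrial share was not tested. The 13 protein-coding genes together took 1.57% to 1.90% of all counts in the high-share libraries and 0.628% to 1.25% in the low-share libraries. For mt-Co1, a catalytic subunit of cytochrome c oxidase, the values were 9938 to 17947 CPM (median 12701) in the high-share libraries and 2965 to 6723 CPM (median 4054) in the low-share libraries. All 13 protein-coding genes were higher on average, with log2 differences from 0.74 to 1.88, and 11 of them had no overlap between the sets. mt-Nd3, a subunit of complex I, had the largest of these differences, 1.88. The 2 that overlapped were mt-Nd4l at 0.74 and mt-Nd5 at 0.81, also complex I subunits. mt-Nd4l had only 1.68 to 3.51 CPM in the high-share libraries and 1.19 to 2.17 CPM in the low-share libraries, and fragments in overlapping genes were counted for neither gene.

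Mitochondrial transcripts are low in GC content, so they were set beside nuclear genes of the same composition. The 13 protein-coding mitochondrial genes had transcript GC contents of 31.9% to 41.1% and a median log2 difference of 1.42. The 2110 nuclear genes in the same GC range had a median of 1.02, with the 10th to 90th percentile from 0.46 to 1.42. Nuclear genes as poor in GC as mitochondrial ones were thus mostly higher in the high-share libraries as well. Of these 2110 genes, 1049 were higher with no overlap between the sets, against 2941 (15.4%) of all 19158 nuclear genes compared. In bulk tissue, fewer cells of a type and less RNA per cell cannot be told apart, which holds for every level below.

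Of 52599 nuclear genes in the files, 19158 had enough counts to be compared. A gene was counted as higher or lower when the 9 high-share and 9 low-share libraries did not overlap at all in CPM. By that rule 2941 genes (15.4%) were higher and 3431 (17.9%) lower in the high-share libraries, together 33.3% of the genes compared. These percentages are the background for every count of a gene list below. Log2 differences had a median of −0.06, with the 5th percentile at −2.31 and the 95th at 1.19, so the lower side reached farther than the higher side. A difference of 1 or more was seen in 1937 genes and one of −1 or less in 4708. The balance of the 2 directions depended on scaling and filtering. Higher genes made up 46.2% of the genes without overlap after TMM scaling. The share was 20.5% with nuclear totals alone (1272 higher, 4924 lower) and 13.6% with totals that include mitochondrial counts (867 higher, 5488 lower). These scalings moved the median of all genes to −0.45 and −0.53, so log2 differences below are read relative to a typical gene. With only genes of at least 10 CPM on average the share was 59.9% (2473 higher, 1653 lower). With 14 libraries in each set it was 25% (51 higher, 153 lower).

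Transcript GC content ordered these differences more closely than gene span, level or transcript length. Spearman's rho across 19107 genes was −0.80 between the log2 difference and the GC content of the longest annotated transcript, against 0.25 with gene span, 0.27 with mean CPM and 0.10 with transcript length. These values describe genes that share 18 libraries, and genes are not independent replicates. Genes were sorted into 10 bins of nearly equal size by GC content. In bin 1, the lowest (25.6% to 40.8%), the median log2 difference was 1.04, and 956 of 1911 genes were higher and 3 lower. In bin 10, the highest (57.3% to 78.3%), the median was −1.68, and 9 genes were higher and 1059 of 1911 lower. Medians were lower at every step in between, and crossed 0 between bin 5, with 0.07, and bin 6, with −0.24. They were 0.77, 0.51 and 0.26 in bins 2 to 4, and −0.59, −0.98 and −1.39 in bins 7 to 9. Scaling by totals that include mitochondrial counts gave 0.55 in bin 1 and −2.14 in bin 10.

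**Figure D2:**
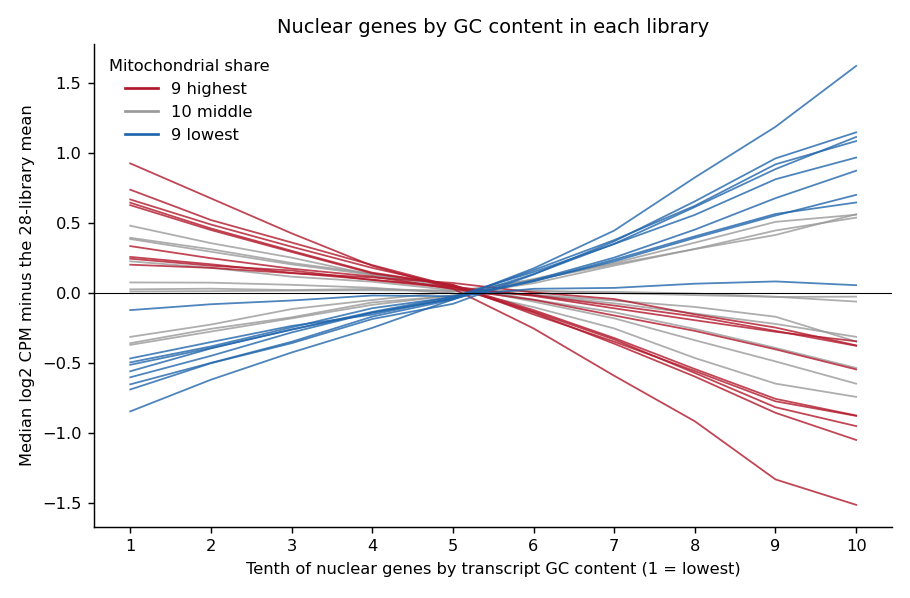
Median level of nuclear genes in each of 10 bins of transcript GC content (horizontal axis, 1 is the lowest) in each of 28 libraries, as log2 CPM minus the 28-library mean (vertical axis). Each line is 1 library. The high-share lines slope down and the low-share lines up, with 1 low-share line nearly flat, and the middle lines, with GC slopes from −0.60 to 0.50, overlap both sets.

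Single libraries showed the same order as the sets. The GC slope of a library is the change in log2 CPM, relative to the 28-library mean, per 10 percentage points of GC content over all genes. It ran from −1.17 to −0.30 (median −0.71) in the high-share libraries and from 0.07 to 1.21 (median 0.76) in the low-share libraries. The 2 sets did not overlap. In GC bin 1, the median gene lay 0.20 to 0.93 above the 28-library mean in the high-share libraries, and all low-share libraries lay below it, at −0.85 to −0.12. In GC bin 10, the high-share libraries lay at −1.52 to −0.35 and the low-share libraries at 0.06 to 1.62. LacZ unstressed replicate 4, the low-share library with the highest mitochondrial share, was the one with the flattest line.

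The untranslated and coding parts of a transcript were then compared, an analysis chosen after these values had been seen. Spearman's rho with the log2 difference was −0.12 for the 5′ untranslated region (11201 genes), −0.69 for the coding sequence (15114 genes) and −0.81 for the 3′ untranslated region (14423 genes). In the 10812 genes with all 3 regions the values were −0.13, −0.70 and −0.82. GC content of the 3′ untranslated region thus followed the difference most closely and that of the 5′ untranslated region hardly at all. Protein-coding genes were next divided at the median GC content of the coding sequence (52.7%) and of the 3′ untranslated region (44.1%). With both above, 5533 genes had a median log2 difference of −1.24, and 18 were higher and 2581 lower. With both at or below, 5535 genes had a median of 0.63, and 2140 were higher and 59 lower. Genes with a GC-rich coding sequence and a GC-poor 3′ untranslated region numbered 1675, with a median of 0.16, 261 higher and 135 lower. The opposite combination numbered 1676, with a median of −0.25, 84 higher and 247 lower. Where the regions disagreed, the direction of the median therefore went with the 3′ untranslated region.

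Kctd12 and Smim10l1 are examples of the mixed kind. Kctd12, an auxiliary subunit of GABA-B receptors, had 34.5 to 123 CPM (median 55.6) in the high-share libraries and 13.1 to 27.6 CPM (median 17.1) in the low-share libraries, a log2 difference of 1.70. Its coding sequence, of which the GC-rich middle is printed above, is 69.0% GC and its 3′ untranslated region 39.2% GC. Smim10l1 had 219 to 611 CPM (median 387) in the high-share libraries and 64.3 to 134 CPM (median 89.6) in the low-share libraries, a log2 difference of 1.87. Its coding sequence is 66.2% GC and its 3′ untranslated region 36.05% GC. Both genes stood with the higher genes in spite of coding sequences richer in GC than that of Ncdn, at 60.6%.

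Gene span, the distance from the start to the end of a gene with its introns, had a weaker relation to the difference. Genes spanning over 500 kb numbered 232, with a median log2 difference of 0.72, and 30 (12.9%) were higher and 2 (0.86%) lower. The share of higher genes lay below the 15.4% of all genes. Most of these long genes had positive differences without reaching separation, since 199 of the 232 were above 0. Genes of 100 to 500 kb had a median of 0.30, and those of 20 to 100 kb a median of 0.08. Below that, medians were −0.42 for 5 to 20 kb, −0.35 for 1 to 5 kb and −0.55 for under 1 kb (682 genes). Totals that include mitochondrial counts gave 0.22 in the longest class. Long genes are also poorer in GC, with a rho of −0.20 between span and GC content, so span was examined within 4 GC classes of nearly equal size. In the class poorest in GC, medians varied little with span, from 0.85 under 1 kb (181 genes) to 1.03 over 500 kb (87 genes). In the richest class they spread from −2.10 under 1 kb (143 genes) to −0.11 over 500 kb (15 genes). In the classes between, medians ran from −0.28 to 0.64 and from −1.38 to 0.18 over the same classes. Span thus went with the difference mainly among GC-rich genes. Transcript GC content describes the spliced RNA, while counts over whole spans include introns, whose composition was not analysed here. Library slopes on log10 span overlapped between the sets, at −0.01 to 0.50 in the high-share libraries and −0.39 to 0.14 in the low-share libraries.

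**Figure D3:**
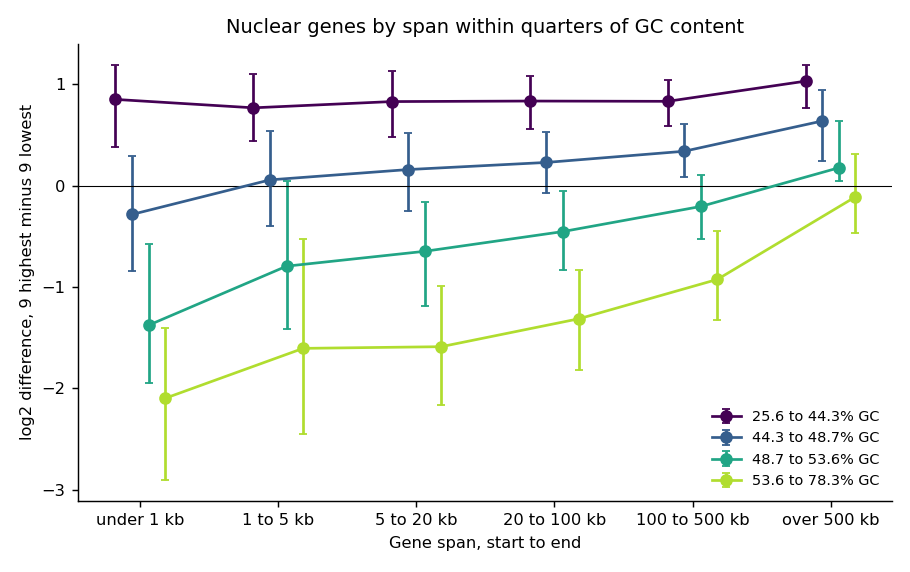
Median log2 difference (high-share minus low-share libraries, vertical axis) of nuclear genes by span class (horizontal axis, kb), with 1 line for each of 4 classes of transcript GC content. Medians in the GC-poorest class stay between 0.77 and 1.03, while those in the GC-richest class spread from −2.10 to −0.11.

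The longest neuronal genes show what this means for single genes. Of 37 very long genes of neuronal adhesion and signalling that could be compared, 31 had differences above 0, with a median of 0.97. By the overlap rule 4 were higher and none lower, a smaller share of higher genes than the 15.4% of all genes. Cadm2, a synaptic adhesion molecule, had 2205 to 5760.4 CPM (median 3986) in the high-share libraries and 935 to 1743 CPM (median 1193) in the low-share libraries, a log2 difference of 1.47. Cntnap2, a neurexin-related protein of axons, had 1528 to 3776 CPM (median 3005) in the high-share libraries and 819 to 1502 CPM (median 982) in the low-share libraries, a log2 difference of 1.25. Cdh12, a neuronal cadherin, had 207 to 476 CPM (median 346) in the high-share libraries and 90.5 to 186 CPM (median 124) in the low-share libraries, a log2 difference of 1.42. When the median of genes in the same GC bin is subtracted (the GC-centred difference, a measure chosen after these values had been seen), the list still had a median of 0.63. It was the largest GC-centred median among the lists of at least 10 members. GC centring does not account for level. Genes over 500 kb had a median of 375 CPM, and genes above 100 CPM of any span had a median log2 difference of 0.68. The part of level was not tested.

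Level, gene class and chromosome were examined alongside. Genes above 100 CPM numbered 2406, with a median log2 difference of 0.68, and 46.4% of them were higher by the overlap rule. Genes of 1 to 10 CPM had a median of −0.46, and they were richer in GC (median 51.2%) than the genes above 100 CPM (44.6%). Protein-coding genes had a median of −0.15, long intergenic RNAs 0.23 and antisense RNAs 0.20, while 27 microRNA genes had a median of −1.32. Counts without strand cannot tell an antisense RNA from the gene opposite it. Among chromosomes, X had the highest median, 0.59, with 193 of 671 genes higher, and also the lowest median GC content, 44.8%. Chromosome 11 had the lowest median, −0.67, with 388 of 1392 genes lower, and the highest median GC content, 52.1%. After GC centring the chromosome medians were 0.15 for X and −0.08 for 11.

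The 12 highest and 12 lowest nuclear genes among those with a mean of at least 10 CPM and no overlap were examined singly. The higher genes had log2 differences from 1.69 to 2.43. Rny1, a small noncoding Y RNA, had 12.2 to 53.2 CPM (median 31.8) in the high-share libraries and 4.14 to 11.02 CPM (median 4.82) in the low-share libraries, and its 2.43 was the largest. Pcp4, a calmodulin-binding neuronal peptide, had 28.6 to 88.8 CPM (median 43.0) in the high-share libraries and 8.18 to 24.4 CPM (median 12.8) in the low-share libraries, a difference of 1.87. Zfp758, the zinc finger gene whose GC-poor sequence is printed above, had 54.2 to 159.8 CPM (median 89.9) in the high-share libraries and 20.1 to 40.6 CPM (median 24.99) in the low-share libraries, a difference of 1.76. The others were Smim10l1 and Kctd12, described above, Rab39b (1.81), a small GTPase of neuronal vesicle traffic, the membrane protein genes Tmem196 (1.77) and Tmem47 (1.75), Pter (1.72), the zinc finger gene Zfp729b (1.69) and the pseudogenes Hspd1-ps3 (1.71) and Znf41-ps (1.69). Hspd1-ps3 resembles its parent gene in sequence, so its reads may have come from either. The 9 protein-coding members had coding GC contents from 34.4% to 69.0% (median 50.5%).

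The lower genes reached farther from 0, with log2 differences from −7.03 to −3.77. Il31ra, a cytokine receptor subunit, had 0.728 to 43.1 CPM (median 2.80) in the high-share libraries and 120.2 to 2408 CPM (median 908) in the low-share libraries. Its difference was −7.03 at a GC content of 48.2%, where genes of the same bin had a median of 0.07. Sspn, a member of the dystrophin complex, likewise had a moderate GC content of 45.8%, with 6.34 to 10.5 CPM (median 8.62) in the high-share libraries and 21.4 to 416 CPM (median 125) in the low-share libraries. The remaining 10 were richer in GC, at 51.1% to 62.4%. Rps15, a protein of the small ribosomal subunit, had 0.227 to 1.18 CPM (median 0.838) in the high-share libraries and 4.43 to 82.5 CPM (median 33.9) in the low-share libraries, a difference of −5.34. Ncdn (neurochondrin), the GC-rich example printed above, had 2.18 to 12.8 CPM (median 5.43) in the high-share libraries and 20.2 to 258 CPM (median 96.5) in the low-share libraries, a difference of −3.96. The low-share libraries themselves spread widely in these genes, over more than 10-fold in Il31ra, Rps15 and Ncdn. The others were Wdr6 (−4.51), Gpr162 (−4.28), the lipid transporter gene Abca2 (−4.15), the lysosomal glucosidase gene Gaa (−4.09), Rpl8 (−3.98), Grina (−3.81), the translation elongation factor gene Eef2 (−3.80) and Rps18 (−3.77). Lars2, the mitochondrial leucyl-tRNA synthetase, picked after its values had been seen, had 21.9 to 2271 CPM (median 49.5) in the high-share libraries and 1311 to 21979 CPM (median 7330.1) in the low-share libraries. Its log2 difference was −5.71, with overlap between the sets and a GC content of 51.2%. Counts cover whole gene spans with introns, so for Il31ra and Lars2 they do not show that the reads came from the messenger RNA. Where in these 2 genes the reads lie was not examined.

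Function was described with 41 gene lists, of which 14 had median log2 differences above 0 and 27 below. The number above 0 was 7 with nuclear totals alone and 6 with totals that include mitochondrial counts. In each of the 38 lists with at least 10 members, members richer in GC had lower differences, with rho from −0.98 to −0.25 (median −0.73). Across the lists, rho between median GC content and median difference was −0.71. Members of 1 pathway therefore often lay on both sides, and the pathways below are described with their members.

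**Figure D4:**
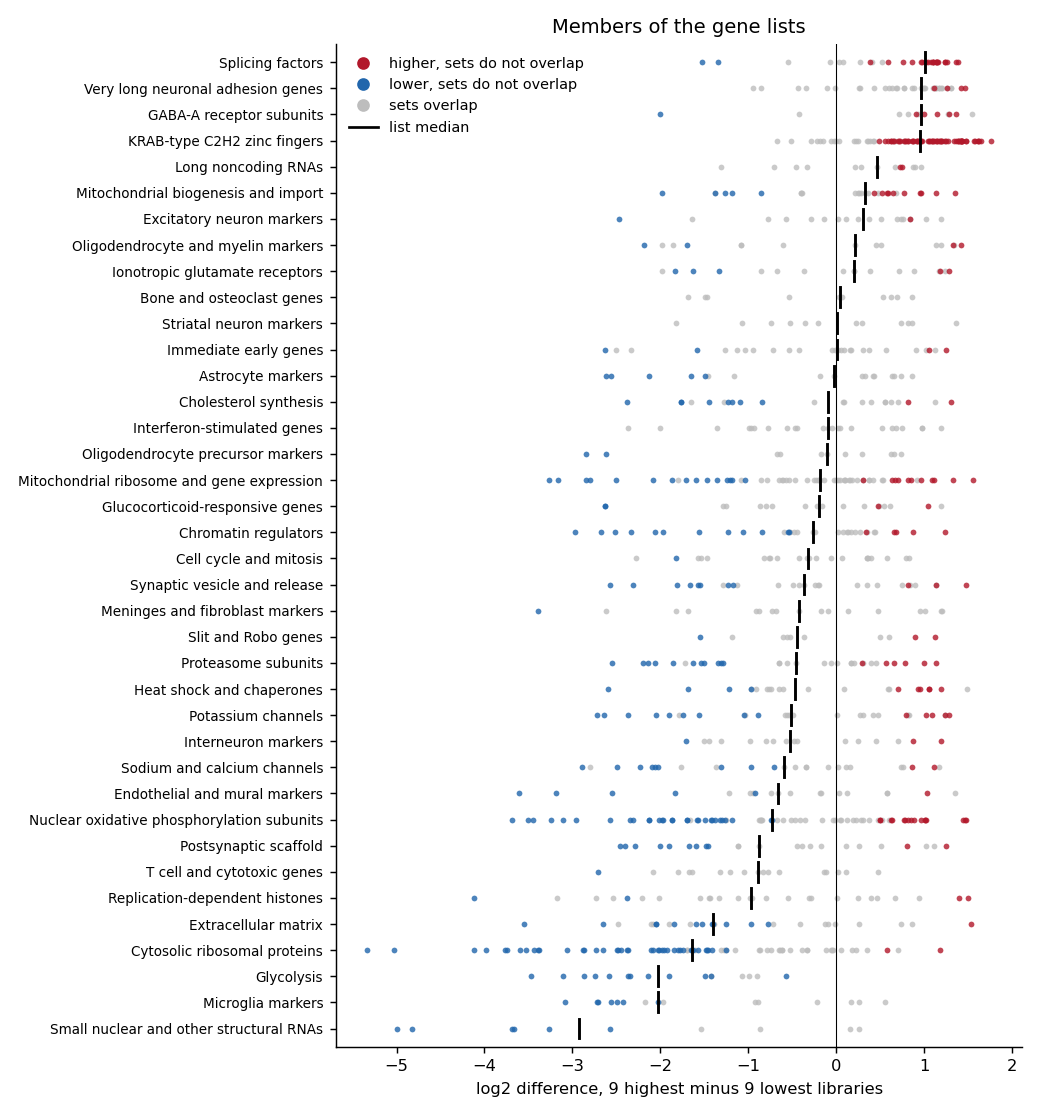
Log2 difference (high-share minus low-share libraries, horizontal axis) of the members of each gene list (rows), with the list median marked. Glycolysis, microglia and ribosomal protein genes lie mostly below 0, while zinc finger, splicing factor and very long neuronal genes lie mostly above 0.

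Nuclear genes for mitochondrial proteins did not follow the mitochondrial genome. Of 73 nuclear subunits of oxidative phosphorylation, 16 were higher and 30 lower in the high-share libraries, with a median of −0.73. Cyc1, the cytochrome c1 subunit of complex III, had 0.503 to 4.69 CPM (median 1.77) in the high-share libraries and 6.92 to 48.98 CPM (median 30.6) in the low-share libraries, a difference of −3.69. Atp5d, a subunit of ATP synthase, and Ndufb7, of complex I, had differences of −3.50 and −3.44. In the other direction, Cox7c, a small subunit of cytochrome c oxidase, had 62.4 to 317 CPM (median 109) in the high-share libraries and 21.4 to 49.5 CPM (median 39.2) in the low-share libraries, a difference of 1.48. Uqcrb (1.46), of complex III, and Ndufc2 (1.44), of complex I, were higher too. Cox8a (−1.97), Cox5b (−1.59) and Cox6a1 (−1.57), of cytochrome c oxidase, were lower, so each of complexes I, III and IV held members on both sides. The higher subunits had a median GC content of 43.4% and the lower ones 53.2%. In 61 genes of the mitochondrial ribosome and mitochondrial gene expression, 11 were higher and 15 lower (median −0.19). Tufm, a mitochondrial elongation factor, had 0.279 to 2.73 CPM (median 2.01) in the high-share libraries and 5.002 to 23.005 CPM (median 15.2) in the low-share libraries, a difference of −3.27. Polrmt, the mitochondrial RNA polymerase, had a difference of −2.80 and was lower without overlap. Tfam, which packages mitochondrial DNA and activates its transcription, had 44.9 to 56.7 CPM (median 50.0) in the high-share libraries and 23.7 to 39.7 CPM (median 30.7) in the low-share libraries, a difference of 0.70. The polymerase and the transcription factor of the mitochondrial genome therefore differed in direction. Of 27 genes of mitochondrial biogenesis and import, 10 were higher and 5 lower, with a median of 0.33 that turned to −0.08 with nuclear totals alone and −0.17 with totals that include mitochondrial counts. Tomm70a, an import receptor, had 411 to 776 CPM (median 584) in the high-share libraries and 169.7 to 299.8 CPM (median 205) in the low-share libraries, a difference of 1.35. Fis1, of mitochondrial fission, was lower at −1.98.

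Genes of translation and of glycolysis lay almost wholly on the lower side. Of 71 cytosolic ribosomal protein genes, 41 were lower and 2 higher, with a median of −1.64, and their median after GC centring was −1.10. Rps15, Rpl36 (−5.03) and Rpl28 (−4.12) had the largest differences. Rpl36 was near the floor in the high-share libraries, at 0 to 0.279 CPM, against 0.415 to 11.1 CPM in the low-share libraries. The 2 higher genes were Rpl39, with 114 to 255 CPM (median 138) in the high-share libraries and 40.2 to 93.9 CPM (median 69.3) in the low-share libraries, and Rpl30, at a difference of 0.58. Ribosomal protein genes have many processed pseudogenes, so the assignment of their reads is uncertain. All 16 glycolysis genes had differences below 0, and 12 were lower without overlap (median −2.02, and −0.72 after GC centring). Aldoa, an aldolase, had 10.5 to 63.5 CPM (median 34.006) in the high-share libraries and 119.8 to 676 CPM (median 387) in the low-share libraries, a difference of −3.48. Pfkl, a phosphofructokinase, and Tpi1, triosephosphate isomerase, had differences of −3.11 and −2.87. Of 31 proteasome subunits, 11 were lower and 6 higher (median −0.46), from Psmb5 at −2.55 to Psmc6 at 1.13. Of 22 cholesterol synthesis genes, 8 were lower and 2 higher (median −0.09), with Mvk, mevalonate kinase, at −2.38 and Hmgcs1, which acts earlier in the pathway, at 1.31. Glycolysis differed from these last 2 pathways in having no member on the higher side.

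Genes of the nucleus divided by family. Of 89 zinc finger genes with KRAB domains, which encode mostly repressors of transposable elements and genes, 65 were higher and none lower (median 0.95), and 60 of the 89 were above 0 after GC centring (median 0.15). Zfp930, for example, had 39.5 to 94.6 CPM (median 66.5) in the high-share libraries and 14.2 to 27.9 CPM (median 18.51) in the low-share libraries, a difference of 1.65. These genes resemble each other in sequence, which can split or lose their reads. Of 32 splicing factor genes, 23 were higher and 2 lower (median 1.02). Srsf10 had 216 to 418 CPM (median 282) in the high-share libraries and 81.8 to 170.5 CPM (median 107) in the low-share libraries, a difference of 1.38. The 2 lower genes were the neuronal splicing regulators Rbfox3 (−1.53) and Nova2 (−1.34), at 56.3% GC or more. Of 33 chromatin regulators, 12 were lower and 5 higher (median −0.27), from Ehmt2, a histone methyltransferase, at −2.97 to Atrx, a chromatin remodeller, at 1.24. Among 26 replication-dependent histone genes, 2 were lower and 2 higher (median −0.97), with Hist1h1a at −4.12 and Hist1h2ae at 1.501. Hist1h2ae was low in level, at 0.658 to 1.13 CPM in the high-share libraries and 0.122 to 0.530 CPM in the low-share libraries. Of 10 structural RNAs that could be compared, 6 were lower and none higher (median −2.92). Rn7sk, the 7SK RNA that restrains transcription elongation, had 142 to 1022 CPM (median 481) in the high-share libraries and 1453 to 4488 CPM (median 3125) in the low-share libraries. Its difference was −2.57, and the 2 copies of the signal recognition particle RNA, Rn7s1 and Rn7s2, had −4.99 and −4.82. Of 13 long noncoding RNAs, Malat1 (0.72) and Snhg14 (0.74) were higher and none lower, and the list median of 0.47 turned to −0.03 with totals that include mitochondrial counts.

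Receptor and channel families had subunits on both sides. Of 12 GABA-A receptor subunits, which form the inhibitory chloride channels of the cortex, 5 were higher and 1 lower (median 0.96). Gabra4 had 273 to 547 CPM (median 384) in the high-share libraries and 123 to 178 CPM (median 150.3) in the low-share libraries, a difference of 1.28. Gabrd, the subunit of extrasynaptic receptors, had 2.12 to 4.63 CPM (median 2.82) in the high-share libraries and 4.75 to 25.5 CPM (median 14.4) in the low-share libraries, a difference of −2.01. Of 17 ionotropic glutamate receptor subunits, 2 were higher and 3 lower (median 0.20, turning to −0.21 and −0.30 with the 2 scalings by total counts). The higher ones were the AMPA receptor subunits Gria4 (1.28) and Gria2 (1.19), and the lower ones were Grik5 (−1.83), Grik3 (−1.63) and the obligatory NMDA receptor subunit Grin1 (−1.33). The GC content of Gria2 was 36.8%, that of Grin1 59.4% and that of Grik5 61.7%. The 2 higher and 3 lower glutamate receptor subunits of 17 lie near the shares of all genes, 15.4% and 17.9%. Sodium and calcium channel genes included 9 lower and 2 higher of 25 (median −0.59), with Cacnb3 at −2.89 and Hcn2 at −2.23. Potassium channel genes included 9 lower and 5 higher of 28 (median −0.52), with Kcnh3 at −2.72, Kcnj4 at −2.64 and Kcnn1 at −2.36. The 5 higher lie near the share of all genes, 15.4%. Kcnn1 was low in level, with at most 0.466 CPM in the high-share libraries and 2.71 CPM in the low-share libraries.

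Genes of the synapse were divided in the same way. Of 23 postsynaptic scaffold genes, 9 were lower and 2 higher (median −0.87), and the median was 0.07 after GC centring. Shank1, a scaffold of excitatory synapses, had 5.03 to 14.3 CPM (median 8.72) in the high-share libraries and 18.1 to 95.6 CPM (median 36.8) in the low-share libraries, a difference of −2.40. Nlgn2, an adhesion molecule of inhibitory synapses, was at −2.46. Homer1, the scaffold with an activity-induced short form, had 496 to 1206 CPM (median 771) in the high-share libraries and 237 to 473 CPM (median 302) in the low-share libraries, a difference of 1.25. Of 27 genes of synaptic vesicles and release, 8 were lower and 3 higher (median −0.37, and 0.11 after GC centring). Syp (synaptophysin) had 10.3 to 28.8 CPM (median 21.7) in the high-share libraries and 40.2 to 177 CPM (median 108) in the low-share libraries, a difference of −2.31 at a GC content of only 45.4%. Snap25, a SNARE protein of the same release machinery, had 1753 to 3769 CPM (median 2109.7) in the high-share libraries and 882 to 1328 CPM (median 1017) in the low-share libraries, a difference of 1.14. Homer1 thus stood opposite Shank1, and Snap25 opposite Syp. The 2 higher of 23 scaffold genes and 3 higher of 27 vesicle genes lie below the share of all genes, 15.4%. The 9 and 8 lower genes of these lists lie above the corresponding share, 17.9%.

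Slit1, the gene named in the study's knockdown label, was lower in the high-share libraries. It had 7.93 to 15.9 CPM (median 13.52) in the high-share libraries and 17.5 to 63.6 CPM (median 36.3) in the low-share libraries, a difference of −1.55 without overlap. Its transcript is 58.9% GC, and its GC-centred difference was 0.14. Over the study's groups, Slit1 ran from 7.93 to 32.8 CPM (median 13.9) in Slit1 KD stressed and 9.93 to 36.3 CPM (median 14.65) in LacZ stressed libraries. It ran from 10.1 to 63.6 CPM (median 22.7) in Slit1 KD unstressed and 13.52 to 60.3 CPM (median 17.8) in LacZ unstressed libraries, so the groups overlapped widely. Slit1 averaged 19.5 ± 10.5 CPM in Slit1 KD stressed and 21.2 ± 10.9 CPM in LacZ stressed libraries, and 27.5 ± 18.6 CPM in Slit1 KD unstressed and 26.0 ± 17.2 CPM in LacZ unstressed libraries (SD, n = 7 each). In edgeR's quasi-likelihood test over all 28 libraries, the log2 fold change of Slit1 for the knockdown label was −0.02 (SE 0.30, adjusted p = 0.99990) without mitochondrial share in the model. With mitochondrial share as a covariate, edgeR gave −0.09 (SE 0.15, adjusted p = 0.990 over 19158 genes). The covariate narrowed the standard error, and the test did not separate the knockdown label from the control. The counts cover the whole gene with introns, and the labels do not say which part of the transcript the virus targets. Of the 10 Slit and Robo genes, Slit1 was lower, Robo2 (1.12), a Slit receptor, and Slit2 (0.89), a related ligand, were higher, and the other 7 overlapped (median −0.45, and 0.40 after GC centring).

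Genes that respond to activity or stress hormones had mixed differences. Of 26 immediate early genes, 2 were lower and 2 higher, with a median of 0.00 that became −0.41 and −0.49 with the 2 scalings by total counts. Both counts lie below the shares of all genes, 17.9% lower and 15.4% higher. After GC centring the median was 0.53, and 21 of the 26 were above 0. Per1, a clock gene induced by glucocorticoids, had 1.06 to 4.79 CPM (median 2.65) in the high-share libraries and 5.83 to 31.5 CPM (median 15.3) in the low-share libraries, a difference of −2.63. Fosb was lower at −1.59, while Homer1 and Egr3 (1.06) were higher. Of 18 glucocorticoid-responsive genes, 2 were lower, Per1 and the lipid droplet gene Plin4 (−2.62), and 2 were higher. These counts also lie below the shares of all genes, and the list median was −0.19, and 0.15 after GC centring. Plin4 was low in level, with at most 0.763 CPM in the high-share libraries and 3.89 CPM in the low-share libraries. The higher genes were Errfi1 (0.48) and Nr3c1, the glucocorticoid receptor, with 338 to 606 CPM (median 448) in the high-share libraries and 167 to 287 CPM (median 219) in the low-share libraries, a difference of 1.04. Of 22 heat shock and chaperone genes, 4 were lower and 6 higher (median −0.46, and 0.10 after GC centring), from Hspb1 at −2.59 to Dnaja1 at 1.19. Hspb1 was near the floor, at 0 to 0.217 CPM in the high-share libraries and 0.231 to 1.14 CPM in the low-share libraries.

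Marker genes of cell types gave no single picture of tissue content, since markers of 1 cell type went both ways. Cortical tissue was represented: Slc17a7, Gad1, Mbp and Slc1a2, markers of excitatory neurons, interneurons, oligodendrocytes and astrocytes, were found in all 18 libraries. Ttr of the choroid plexus was at most 0.447 CPM in the high-share and 1.27 CPM in the low-share libraries, and Ibsp of bone at most 0.615 and 0.369 CPM. Of 18 excitatory neuron markers, 12 had differences above 0, up to 1.19, and 6 below. By the overlap rule 1 was higher and 1 lower. Slc17a7, the vesicular glutamate transporter, had 14.0 to 77.8 CPM (median 42.7) in the high-share libraries and 103 to 483 CPM (median 249) in the low-share libraries, a difference of −2.46. The summed level of the list was 1826 to 2803 CPM in the high-share libraries and 1569.9 to 2147 CPM in the low-share libraries. The list median was 0.31, turning to −0.10 and −0.19 with the 2 scalings by total counts. Of 16 interneuron markers, Vip (1.19) and Gad2 (0.87) were higher and Cort (−1.71) lower, and summed levels were 775 to 1396 CPM in the high-share and 644 to 974 CPM in the low-share libraries. Of 15 oligodendrocyte markers, 2 were higher, Ugt8a (1.42) and Aspa (1.33), and 2 lower, Myrf (−2.18) and Cnp (−1.70). Summed levels were 713 to 2891 CPM in the high-share and 522 to 943 CPM in the low-share libraries. Of 17 astrocyte markers, 8 had differences above 0, up to 0.86, and 9 below. By the overlap rule 5 were lower and none higher, with Cbs at −2.62 and Aldh1l1 at −2.56. The summed level of the astrocyte list was 4519 to 6194 CPM in the high-share and 3153 to 4718 CPM in the low-share libraries. The defining astrocyte marker Gfap was listed at 0 in all libraries, which does not show that its transcript was absent. Fragments in overlapping genes were counted for neither gene, and whether that gave the 0 was not tested.

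Microglia markers were the cell type list with the median log2 difference farthest from 0. Of 15 compared, 7 were lower and none higher in the high-share libraries (median −2.03, and −0.80 after GC centring). C1qa, a complement component, had 2.24 to 24.2 CPM (median 8.92) in the high-share libraries and 38.03 to 122 CPM (median 86.6) in the low-share libraries, a difference of −3.09. Tyrobp (−2.72) and C1qb (−2.71) followed. Cx3cr1, a defining receptor of microglia with a GC content of 50.3%, had 37.5 to 81.9 CPM (median 62.4) in the high-share libraries and 37.8 to 87.1 CPM (median 68.2) in the low-share libraries, a difference of only −0.22. The summed level of the list was 479 to 1126 CPM in the high-share and 664 to 1763 CPM in the low-share libraries, with overlap. The other defining markers P2ry12, Itgam and Gpr34 were listed at 0 in all libraries, and as for Gfap this does not show that they were absent. Of 19 endothelial and mural markers, 6 had differences above 0, up to 1.35, and 13 below, down to −3.60 in Cldn5, a tight junction protein. By the overlap rule 5 markers were lower and 1 higher. Their summed level was 498 to 774 CPM in the high-share and 405 to 503 CPM in the low-share libraries. Of 17 T cell genes, 14 had differences below 0 and 3 above (median −0.89). After GC centring the T cell median was −0.95, farther from 0 than that of the microglia list. By the overlap rule 1 T cell gene was lower, Nkg7 (−2.71). Summed levels of the T cell list were 169 to 1123 CPM in the high-share and 306 to 882 CPM in the low-share libraries. Sums for striatal neurons (286 to 442 CPM in the high-share and 301 to 646 CPM in the low-share libraries), bone (13.7 to 57.8 and 14.7 to 43.0 CPM) and choroid plexus (8.47 to 17.8 and 9.59 to 15.9 CPM) overlapped as well. The part of cell content in the differences was not tested. Extracellular matrix genes included 12 lower and 1 higher of 27 (median −1.40), from Lamb2, a laminin chain, at −3.55 to Hapln1, a link protein of perineuronal nets, at 1.53.

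The 10 middle libraries took no part in choosing the 18 and so allowed a test. Their mitochondrial shares ran from 5.05% to 6.95%, and they include the 3 libraries that stood apart. In edgeR's quasi-likelihood test of the slope of each nuclear gene on log2 of the mitochondrial to nuclear count ratio, 0 of 19158 genes (0%) passed an adjusted p of 0.05. The smallest adjusted p was 0.122, and 5259 genes (27.5%) had an unadjusted p under 0.05. DESeq2 called 2361 genes on the same libraries, 1205 with positive and 1156 with negative slopes. Without LacZ unstressed replicate 6, edgeR called 4009 genes, 1883 positive and 2126 negative, while leaving out any other single library gave 0. Leaving out the 3 libraries that stood apart also gave 0. For genes without overlap between the sets, the direction of the slopes followed that of the 18 libraries. Of the 2941 higher genes, 2918 (99.2%) had slopes above 0 in the middle libraries, and 1809 of them had an unadjusted p under 0.05. Of the 3431 lower genes, 3427 (99.9%) had slopes below 0, with 2162 at an unadjusted p under 0.05. Over all genes, 9224 (48.1%) had slopes above 0. Some gene lists, most of whose members overlapped between the sets, did not keep their direction. T cell genes had a median difference of −0.89 but a median slope of 0.62, with 12 slopes above 0 and 5 below. Oligodendrocyte markers had 0.21 and −1.55, with 1 slope above 0 and 14 below. Bone genes had 0.04 and −12.8, with 0 slopes above 0 and 10 below. Spearman's rho across genes was 0.87 between the difference and the middle slope, and −0.72 between the middle slope and GC content. Both measures share the annotation and the gene levels, and genes are not independent replicates.

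Among named genes, Smim10l1 had a slope of 2.36 log2 CPM per doubling of the ratio (SE 0.52, edgeR adjusted p = 0.122) in the middle libraries. In edgeR's test Ncdn had −5.63 (SE 1.72, adjusted p = 0.123), C1qa −3.73 (SE 1.42, adjusted p = 0.141) and Slit1 −1.97 (SE 0.68, adjusted p = 0.128). None of these 4 genes passed the threshold of 0.05. The log2 ratio ran only from −4.23 to −3.74 in the middle libraries, so a slope per doubling reaches beyond their range.

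The GC slope of a library was then set against mitochondrial share within the middle libraries. Its range there was −0.60 to 0.50 log2 CPM per 10 points of GC, and it had a Pearson r of −0.71 with the log2 ratio over 10 libraries (2-sided permutation p = 0.0283, adjusted p = 0.0566 over 2 relations). Spearman's rho was −0.62 (permutation p = 0.0602, adjusted p = 0.120). Without the 2 libraries farthest from the median ratio, LacZ unstressed replicate 5 and Slit1 KD stressed replicate 2, r was −0.53, so the size of the relation rests in part on those 2. The span slope had r = 0.58 (permutation p = 0.0766, adjusted p = 0.0766) and rho = 0.49 (permutation p = 0.153, adjusted p = 0.153), with r = 0.35 without the same 2 libraries. After adjustment neither relation passed 0.05. With the 13 protein-coding mitochondrial genes alone in the ratio, the rank correlation passed for both slopes, at rho = −0.73 for the GC slope (permutation p = 0.0202, adjusted p = 0.0405) and 0.66 for the span slope (permutation p = 0.0433, adjusted p = 0.0433). Pearson's r did not pass there, at −0.71 for the GC slope (permutation adjusted p = 0.0555) and 0.61 for the span slope (permutation adjusted p = 0.0612).

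**Figure D5:**
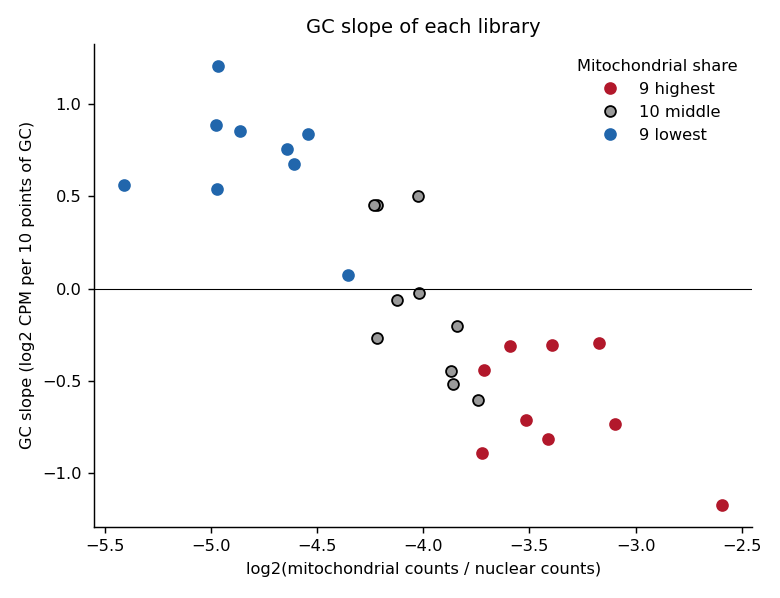
GC slope of each library (log2 CPM per 10 percentage points of GC, vertical axis) against log2 of mitochondrial over nuclear counts (horizontal axis), coloured by set. High-share libraries lie between −1.17 and −0.30, low-share libraries between 0.07 and 1.21, and middle libraries between −0.60 and 0.50.

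Mitochondrial share itself was compared between the study's groups, which the labels define. It averaged 6.67% ± 4.22 in Slit1 KD unstressed and 5.78% ± 2.13 in LacZ unstressed libraries, and 5.70% ± 1.67 in Slit1 KD stressed and 6.40% ± 2.45 in LacZ stressed libraries (SD, n = 7 each). On the log2 scale the difference was 0.07 for Slit1 KD against LacZ unstressed (exact permutation p = 0.876) and −0.14 for Slit1 KD against LacZ stressed (exact permutation p = 0.652). Stressed against unstressed libraries differed by −0.06 under Slit1 KD (exact permutation p = 0.879) and by 0.14 under LacZ (exact permutation p = 0.667). All 4 tests, 2-sided, had an adjusted p of 0.879, where the smallest unadjusted p that 7 against 7 libraries allow is 5.83e-04. Differences between group means were smaller than the spread within groups.

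Mitochondrial share was also used as a covariate for the study's own factors. In edgeR's quasi-likelihood test, 0 genes (0%) passed an adjusted p of 0.05 for the knockdown label or for stress, with or without the covariate. For the knockdown label, 636 genes had an unadjusted p under 0.05 with the covariate and 290 without it. For stress, the numbers were 986 with and 406 without. The median standard error of a gene's fold change for the knockdown label was 0.155 with the covariate and 0.216 without. DESeq2 called 4 genes for the knockdown label with the covariate and 0 without, and 0 for stress in both fits. The 4 were Ibsp (log2 fold change 4.84, SE 0.90, DESeq2 adjusted p = 0.00131), Col1a1 (3.66, SE 0.79, adjusted p = 0.0222), Itih5 (0.35, SE 0.08, adjusted p = 0.0432) and Gm28578 (−0.68, SE 0.15, adjusted p = 0.0222). Ibsp and Col1a1 are genes of bone matrix, and 1 Slit1 KD stressed library, replicate 2, had the highest Ibsp count of all 28.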

How the data were processed

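RNA was ribosome-depleted, primed with random hexamers and made into stranded libraries, per the labels' protocols, which do not give the lane of a library. The deposited values are raw counts of fragments per gene. Per the file headers, featureCounts 1.6.2 counted each library over full spans of Ensembl 90 genes (GRCm38), without a strand option and from alignments with duplicates removed. Fragments in overlapping genes were counted for neither. HISAT2, Subread and DESeq2 are named in the submitters' processing notes. Total counts per library, in units of 1e6, ran from 30.6 to 44.3. Members and gene lists were chosen with earlier results of these data known.

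The 37 mitochondrial genes were left out of library sizes. Nuclear genes were filtered with filterByExpr and scaled by TMM in edgeR 4.0.16 (R 4.3.3), and levels were log2 CPM with a prior count of 2 (mitochondrial genes, log2 CPM with a pseudocount of 0.05). Differences are means over the 9 high-share minus means over the 9 low-share libraries. GC content came from the longest GENCODE vM21 transcript of each gene, found for 19107 of 19158 genes. Tests used edgeR's quasi-likelihood fit with Benjamini-Hochberg adjustment over all genes compared, with DESeq2 1.42.0 as an alternative, and exact or 100000-resample permutation tests (scipy 1.17.1, pandas 2.3.3, numpy 2.4.6; figures, matplotlib 3.10.9). P-values measure the spread between these single-mouse libraries. Standard errors given with edgeR values were computed from the fold change or slope and the F statistic of its test. The fitting steps were tested on simulated data.

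Genes were named as the 12 highest and 12 lowest with a mean of at least 10 CPM and no overlap, and as up to 3 members of each list with the largest absolute difference. Other genes named were chosen after their values were seen. Alternatives tried were other scalings, filters, set sizes and rankings, the study group as a covariate, and leaving out libraries. Some genes that this rule picks are not reported here.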

Additional observations from a re-analysis of the deposited data

Results flagged for a closer look

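Among 266 groups of 9 library values, 13 held 1 library whose gap to its nearest neighbour was large for the range of its set. Chance gives about 1 in 20, and the number flagged lies near that share. The flagged libraries are therefore listed as a description, and no single flag is read as a result. The mitochondrial share of Slit1 KD unstressed replicate 7, 14.2%, stood above the other 8 high-share libraries, whose maximum was 10.5%. The same library had the lowest levels of its set for Mrpl28, a mitochondrial ribosomal protein (0.0559 CPM), Psmb5, a proteasome subunit (0.671 CPM), and Lamb2 (0.0559 CPM). It had the highest level for Ugt8a, a myelin lipid enzyme, at 203 CPM. In the low-share set, LacZ unstressed replicate 4 stood apart for Zfp758 (40.6 CPM) and Srsf10 (170.5 CPM), and on the low side for Vtn, vitronectin (4.98 CPM), and Lamb2 (1.68 CPM). Slit1 KD unstressed replicate 2, the library with the lowest mitochondrial share, stood apart in the low-share set for Malat1 (3928 CPM), Pde10a, a phosphodiesterase of striatal neurons (509.7 CPM), and Spp1, osteopontin (2.94 CPM). In the high-share set LacZ unstressed replicate 7 stood apart for Spp1, at 2.48 CPM. The part of these single libraries in the differences was examined by leaving each out in turn.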

How the results depend on the processing

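With nuclear totals as the scale, 1272 genes were higher, and medians were 0.64 in GC bin 1, 0.31 over 500 kb, −0.74 at most 5 kb and −0.45 over all genes. List medians turned to −0.082 for mitochondrial biogenesis and −0.10 for excitatory neurons, with 7 lists above 0. With totals that include mitochondrial counts, 867 genes were higher and 5488 lower, and medians were 0.55 in GC bin 1, −2.14 in bin 10, 0.22 over 500 kb, −0.81 at most 5 kb and −0.53 over all genes. List medians turned to −0.17 for mitochondrial biogenesis, −0.19 for excitatory neurons and −0.032 for long noncoding RNAs, with 6 lists above 0, and Gad1 and Slc1a2 turned to −0.042 and −0.072. With 14 libraries in each set, 51 genes were higher and 153 lower. Without a filter, rho was −0.68 with GC and 0.14 with span. With genes of at least 10 CPM, 1653 were lower, rho was −0.83 with GC and 0.15 with span, and medians were −0.059 at most 5 kb and 0.19 over all genes. List medians there turned to 0.11 for the mitochondrial ribosome, 0.011 for potassium channels, 0.065 for Slit and Robo genes, 1.39 for histones, 0.17 for interneurons and 0.30 for endothelial markers, with 23 lists above 0. After GC centring, 22 lists were above 0, with medians of 0.074 for postsynaptic scaffolds, 0.11 for synaptic vesicles, 0.40 for Slit and Robo genes, 0.10 for heat shock, 0.16 for chromatin, −0.070 for long noncoding RNAs, 0.26 for interneurons and 0.0068 for endothelial markers. DESeq2 called 2361 genes in the middle libraries and 4 for the knockdown label with the covariate. The GC slope had r = −0.73 without the 3 libraries that stood apart, an alternative chosen after seeing the data (permutation p = 0.0563, 7 libraries left). By the 13 protein-coding mitochondrial genes alone, the log2 group difference turned to −0.12 for Slit1 KD against LacZ unstressed and 0.11 for Slit1 KD stressed against unstressed. The cause of these shifts was not tested.

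Leaving out 1 of the 18 libraries at a time, a check added after the data were seen, gave 2948 to 3360 higher and 3438 to 4386 lower genes. Spearman's rho ranged from −0.80 to −0.79 with GC and from 0.24 to 0.28 with span. Medians ranged from 1.00 to 1.10 in GC bin 1, −1.78 to −1.59 in bin 10, 0.67 to 0.79 over 500 kb, −0.43 to −0.32 at most 5 kb and −0.07 to −0.04 over all genes, and 11 to 15 lists were above 0. Leaving out 1 middle library at a time gave 0 to 4009 genes. The planned removal of the 3 libraries that stood apart gave no value for the 18, which include 0 of them. No paired analysis was possible because replicate numbers were given in the order of the samples and pair no libraries. Of genes under 1 CPM, 1.71% were higher and 7.92% lower without overlap, and whether depth set these shares was not tested.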
